A study of Mus musculus with 14 samples.

Results

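The genes described here make, store, recapture and break down noradrenaline: Th, Gch1, Ddc, Dbh, Cyb561, Slc18a2, Slc6a2, Maoa and Maob. These 9 genes were chosen by name for their known roles, with earlier results of these data known. They are among 55422 entries in the deposited count table (55421 mouse genes and 1 human tau construct). All 9 were measured above the floor of 3 counts in every library. RNA was sequenced from brainstem tissue of 7 mice, with 2 libraries per animal: the total homogenate (pre-IP) and the immunoprecipitate (IP) made from it.

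Every animal carried a Th-Cre transgene and the Slc6a2-eGFP/Rpl10a transgene, in which regulatory sequence of the noradrenaline transporter gene directs a ribosomal protein fused to green fluorescent protein; ribosomes with the tag can be pulled down together with the mRNA they carry. The stated strain background is C57Bl/6. At 2 to 3 months of age the locus coeruleus, the main noradrenergic nucleus of the brain, was infused with either P364S mutant human tau (the tau animals B, C, L and M) or EYFP, a yellow fluorescent protein (the control animals H, I and K). The groups were therefore tau pre-IP (n = 4), EYFP pre-IP (n = 3), tau IP (n = 4) and EYFP IP (n = 3). The time from infusion to tissue collection is not given in the sources used here. No group lacked the infusion or either transgene, and whether the Slc6a2 sequence in the reporter transgene adds reads to Slc6a2 was not tested.

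In noradrenergic neurons, tyrosine hydroxylase (Th) turns tyrosine into L-DOPA with the cofactor tetrahydrobiopterin, whose synthesis starts with GTP cyclohydrolase (Gch1). DOPA decarboxylase (Ddc) makes dopamine, the vesicular monoamine transporter VMAT2 (Slc18a2) loads it into vesicles, and there dopamine beta-hydroxylase (Dbh) converts it to noradrenaline using ascorbate, which cytochrome b561 (Cyb561) helps to regenerate. Released noradrenaline is taken back up by the transporter NET (Slc6a2), and the mitochondrial monoamine oxidases A (Maoa) and B (Maob) break it down. Dbh and Slc6a2 are the most restricted of these genes to noradrenergic cells, whereas Th, Ddc and Slc18a2 are shared with dopaminergic neurons and Maob is known from serotonergic neurons and astrocytes.

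Total counts ran from 41843489 to 65664551 per library, so that 3 counts correspond to between 0.0457 and 0.0717 counts per 1e6 counts (CPM). Several libraries stood apart from the others. The EYFP IP library of animal I had an RNA integrity number of 4.2, against 7.7 to 9 in the other 13 libraries. Animal K, labelled EYFP, had 408 and 398 counts of the tau construct in its pre-IP and IP, against 2 to 18 in animals H and I and 3527 or more in every tau library. Animals B, I and L were labelled male and animals C, H, K and M female. Animal M, labelled female, had 674 and 1153 counts from Y-linked genes in its pre-IP and IP. The other animals labelled female had 0 to 4 such counts per library, and those labelled male had 1096 to 4944. The IP RNA was at 0.400 ± 0.316 ng/µl (SD, n = 4) in tau animals and 1.70 ± 1.05 ng/µl (SD, n = 3) in EYFP animals, and the part of this difference in the results below was not tested.

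Upstream sequence of 4 members whose IP levels moved together is shown here from the RefSeq promoter table (GRCm38.p6), because these genes code for hydroxylation, its cofactor, vesicle loading and breakdown and their start regions can be set side by side. The table held 6 of the 9 members and no entry for Slc6a2, Cyb561 or Maob. Ddc and Dbh were also in it and moved with these 4, so a match shared by the 4 depends on which were shown. Each stretch ends before the annotated exon and is printed 5′ to 3′ on the gene's strand. Capitals mark matches, on either strand, to TGACG (the half-site of the cAMP response element), ATTA (the core bound by many homeodomain factors), GGGCGG (the GC box) and TATAAA (the TATA box).
Th, chr7:142900015-142900245, minus strand: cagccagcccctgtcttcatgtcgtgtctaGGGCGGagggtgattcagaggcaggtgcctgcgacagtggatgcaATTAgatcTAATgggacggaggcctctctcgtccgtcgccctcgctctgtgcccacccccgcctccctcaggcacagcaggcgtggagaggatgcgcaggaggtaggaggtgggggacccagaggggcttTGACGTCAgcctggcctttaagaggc
Gch1, chr14:47189414-47189663, minus strand: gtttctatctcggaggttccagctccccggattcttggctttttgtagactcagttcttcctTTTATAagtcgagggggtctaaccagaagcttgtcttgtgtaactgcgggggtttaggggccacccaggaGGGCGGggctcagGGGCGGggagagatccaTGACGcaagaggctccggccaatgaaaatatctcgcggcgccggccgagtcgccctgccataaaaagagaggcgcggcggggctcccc
Slc18a2, chr19:59260628-59260877, plus strand: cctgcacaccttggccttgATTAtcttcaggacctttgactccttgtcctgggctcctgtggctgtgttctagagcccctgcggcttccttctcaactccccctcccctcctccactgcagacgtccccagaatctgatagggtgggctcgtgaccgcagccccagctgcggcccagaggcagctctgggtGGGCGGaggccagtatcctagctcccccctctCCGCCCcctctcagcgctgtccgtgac
Maoa, chrX:16619448-16619697, plus strand: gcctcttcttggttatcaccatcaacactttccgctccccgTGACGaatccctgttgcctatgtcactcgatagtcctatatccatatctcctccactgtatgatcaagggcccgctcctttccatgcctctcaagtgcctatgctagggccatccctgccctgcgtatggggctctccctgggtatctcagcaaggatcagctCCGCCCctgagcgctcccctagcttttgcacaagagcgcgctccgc
In the Th window, 2 overlapping TGACG matches on opposite strands form the palindrome TGACGTCA, which starts at position -45 from the transcription start. Gch1 and Maoa each had 1 TGACG match, at -88 and -209, and the Slc18a2 window had none. TGACG occurred in 17.8% of all 32851 promoters of the same table, ATTA in 54.9%, GGGCGG in 32.7% and TATAAA in 12.4%. The windows of Th and Slc18a2 had ATTA matches and those of Gch1 and Maoa had none, GGGCGG was found in all 4, and TATAAA was found in Gch1, at -188. The members whose windows are not shown differed in this: the 2 windows of Ddc and the window of Dbh had ATTA matches and no GGGCGG. Ddc had no TGACG while Dbh had 1, and 1 of the Ddc windows had a TATAAA match. The Dbh window begins inside an annotated exon of Dbh, so its matches cannot be read as lying upstream of the gene. These matches describe the letters of the windows and were not linked to any measurement of binding.

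All 9 genes were higher in IP than in pre-IP when all 14 libraries were compared with edgeR's quasi-likelihood test at an adjusted p (Benjamini-Hochberg) under 0.05, where 16.3% of the 18792 genes tested were called higher and 31% were called in either direction. The genes that define noradrenergic cells led: the log2 fold change of Dbh was 4.24 (SE 0.92, adjusted p = 0.00259 by edgeR) and that of Slc6a2 4.04 (SE 0.86, edgeR adjusted p = 0.00236). Th and Slc18a2 followed at 2.40 and 2.35, then Maoa at 1.93, Gch1 at 1.66, Cyb561 at 1.25 and Ddc at 1.23. Maob had the smallest difference, 0.35 (SE 0.13, edgeR adjusted p = 0.047). The median of the 9 was 1.93 and that of all tested genes was -0.00363. With the animal as a block, 8 of the 9 were called and Cyb561 was not (edgeR adjusted p = 0.0543). With no filter on low counts Maob was not called (edgeR adjusted p = 0.0791). Leaving out C or L lost the calls of Gch1 (edgeR adjusted p = 0.0562 and 0.0558), Cyb561 (0.0847 and 0.0821) and Maob (0.0502 and 0.166), which left 6. Leaving out B, H or I lost that of Maob (edgeR adjusted p = 0.0795, 0.0928 and 0.129).

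The pull-down was also measured within each treatment. In the tau animals alone, 8 of the 9 genes were higher in IP (10.4% of 18949 tested genes were called higher there), all but Maob, with a median log2 fold change over the 9 of 2.95 against -0.0274 over all tested genes. In the EYFP animals alone only Th was called among the 9 (3.96% of 19105 tested genes were called higher), and the median was 0.46 against -0.00197. With the animal as a block, 5 members were called in the EYFP animals, where 16.9% of all genes tested were called in either direction: Th, Dbh (1.48, edgeR adjusted p = 5.26e-06), Slc6a2 (1.55, edgeR adjusted p = 1.08e-05), Slc18a2 (0.62, edgeR adjusted p = 0.0266) and Maoa (0.45, edgeR adjusted p = 0.0476). Over all alternatives the adjusted p of these 4 in the EYFP animals reached 0.285, 0.341, 0.422 and 0.347. Leaving out tau animal C or tau animal L removed every call in the tau animals. The adjusted p of the 8 members then lay between 0.0584 and 0.0684 by edgeR, and the Dbh estimate with any 1 tau animal left out lay between 5.57 and 6.61. Leaving out EYFP animal H or I removed the members' calls in the EYFP animals, while leaving out K gave 3 (Th, Dbh and Slc6a2). The test of the difference between treatments is the interaction of treatment and fraction, which no member passed.

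**Figure D1:**
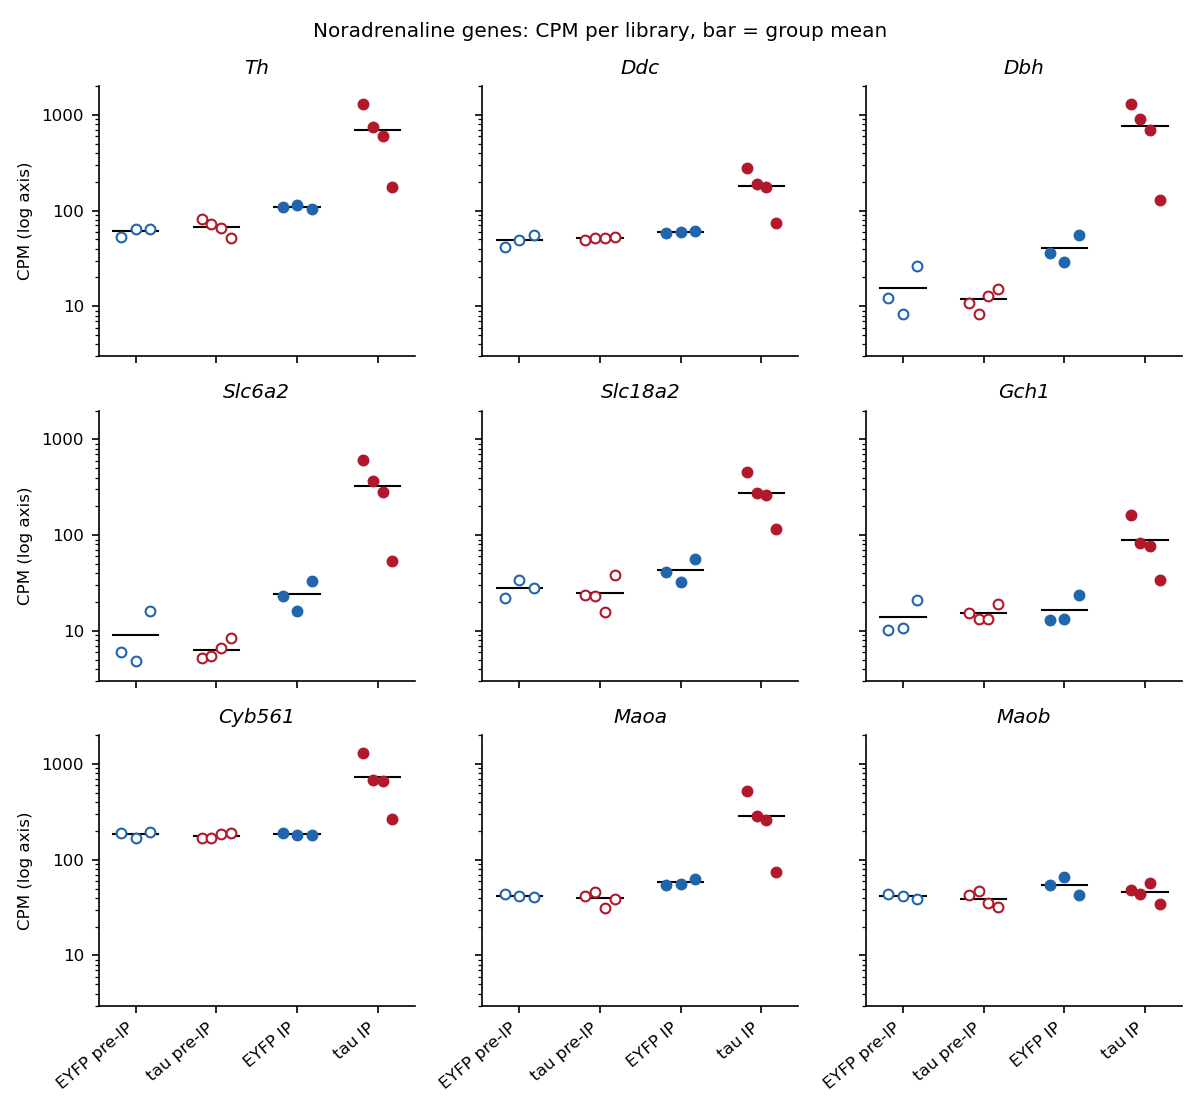
CPM (log axis) of each of the 9 genes in every library, by group, with 1 point per library, open symbols for pre-IP, filled symbols for IP and a bar at the group mean. In 8 panels the 4 tau IP points lie above the 3 EYFP IP points, while in the Maob panel they overlap, and in all 9 panels the pre-IP groups overlap.

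Synthesis starts with the cofactor and the hydroxylase. Gch1 (ENSMUSG00000037580.10, chr14:47153895-47189413, minus strand, GRCm38) read 164.1, 82.1, 77.5 and 33.9 CPM in the tau IP of animals B, C, L and M, and 12.9, 13.4 and 23.5 CPM in the EYFP IP of H, I and K. Its pre-IP levels were 15.2, 13.4, 13.3 and 18.99 CPM in the tau animals and 10.2, 10.8 and 21.2 CPM in the EYFP animals. Every tau IP library was above every EYFP IP library, M least so, and the pre-IP groups overlapped. Within tau animals Gch1 differed between fractions by 2.65 (SE 0.43, edgeR adjusted p = 0.00591), and within EYFP animals by 0.21 (edgeR adjusted p = 0.764).

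Th (ENSMUSG00000000214.11, chr7:142892752-142931128, minus strand), the rate-limiting enzyme, had 1285, 742.6, 597.9 and 177.2 CPM in the tau IP of B, C, L and M, and 108.4, 115.2 and 103.4 CPM in the EYFP IP of H, I and K. In pre-IP it had 81.0, 72.4, 66.3 and 51.3 CPM in tau animals and 53.3, 64.6 and 64.0 CPM in EYFP animals. The IP groups did not overlap and the pre-IP groups did, and animal M, lowest in tau IP, was also lowest in tau pre-IP. The difference between fractions was 3.48 in tau animals (SE 0.51, edgeR adjusted p = 0.00556) and 0.83 in EYFP animals (SE 0.16, edgeR adjusted p = 0.0156), and the EYFP value was not called without H (edgeR adjusted p = 0.108) or without I (0.139). In EYFP animals without the filter on low counts, 4 members were called in place of 1. Over all genes 2164 were called there in place of 1218, from a larger set of tested genes.

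Ddc (ENSMUSG00000020182.16, chr11:11814101-11898144, minus strand), the decarboxylase, was at 278.4, 190.9, 177.7 and 74.9 CPM in the tau pull-downs and at 58.2, 59.6 and 61.2 CPM in EYFP IP, in the same order of animals. In pre-IP it stood at 49.2, 51.8, 51.8 and 52.5 CPM in the tau animals and 42.1, 49.4 and 55.5 CPM in the EYFP animals. The tau pre-IP libraries lay within a narrow band, and its lowest tau IP library, M, was only a little above the highest EYFP IP library. Ddc differed between fractions by 1.90 in tau animals (SE 0.34, edgeR adjusted p = 0.007) and by 0.27 in EYFP animals (edgeR adjusted p = 0.384).

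Dbh (ENSMUSG00000000889.8, chr2:27165233-27183200, plus strand) encodes the enzyme of the last step to noradrenaline. Its IP levels were 1292, 911.7, 700.3 and 128.3 CPM in tau animals B, C, L and M, and 36.4, 29.2 and 56.1 CPM in EYFP animals H, I and K. Its pre-IP levels were 10.9, 8.31, 12.9 and 15.2 CPM and 12.1, 8.40 and 26.5 CPM in the same animals. K was the highest EYFP animal in both fractions, and M, the highest of the tau animals in pre-IP, was the lowest of them in IP. Between fractions Dbh differed by 6.09 in tau animals (SE 0.66, edgeR adjusted p = 0.00378) and by 1.35 in EYFP animals (SE 0.40, edgeR adjusted p = 0.0677).

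Cyb561 (ENSMUSG00000019590.16, chr11:105933702-105953336, minus strand), which passes electrons into the vesicle to restore ascorbate, had 1290, 680.9, 665.6 and 264.2 CPM in the tau pull-downs and 190.8, 180.8 and 183.5 CPM in EYFP IP. Its pre-IP levels were 167.9, 167, 185.9 and 192.2 CPM in tau animals and 188.2, 168.9 and 197.3 CPM in EYFP animals. EYFP IP thus lay within the range of pre-IP, and tau IP lay above it in all 4 animals. The difference between fractions was 2.12 in tau animals (SE 0.40, edgeR adjusted p = 0.00834) and -0.01 in EYFP animals (edgeR adjusted p = 0.986). Its exons share 377 bases (10.3%) with the antisense gene Gm9910, whose reads cannot be told apart without a stated strand setting.

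Both transporters followed Dbh and Th. Slc18a2 (ENSMUSG00000025094.8, chr19:59260896-59296012, plus strand) was at 453.6, 278.1, 260.7 and 116.6 CPM in the tau IP of B, C, L and M and at 41.6, 32.7 and 56.0 CPM in the EYFP IP of H, I and K. Pre-IP libraries gave 23.5, 23.1, 15.7 and 38.3 CPM in tau animals and 22.01, 33.6 and 28.2 CPM in EYFP animals. The IP groups were separate, and animal I was the single animal of the 7 with a lower level in IP than in pre-IP once scaled, with a log2 ratio of -0.08. Slc18a2 differed between fractions by 3.54 in tau animals (SE 0.44, edgeR adjusted p = 0.0045) and by 0.63 in EYFP animals (edgeR adjusted p = 0.144). It shares 111 exonic bases (2.12%) with the antisense gene Gm29261.

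Slc6a2 (ENSMUSG00000055368.14, chr8:92960079-93001667, plus strand) had 613.6, 367.3, 282.3 and 53.8 CPM in the tau pull-downs and 23.4, 16.0 and 32.9 CPM in EYFP IP. In pre-IP it had 5.15, 5.42, 6.57 and 8.40 CPM in tau animals and 6.05, 4.83 and 16.2 CPM in EYFP animals. As for Dbh, K was the highest EYFP animal in both fractions, and M was highest in tau pre-IP and lowest in tau IP. The difference between fractions was 5.78 in tau animals (SE 0.67, edgeR adjusted p = 0.00438) and 1.39 in EYFP animals (SE 0.43, edgeR adjusted p = 0.0809).

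The monoamine oxidase genes, neighbours on the X chromosome, parted. Maoa (ENSMUSG00000025037.6, chrX:16619698-16687818, plus strand) had 522.2, 287.6, 259.7 and 75.0 CPM in the tau pull-downs, 53.9, 56.3 and 63.5 CPM in EYFP IP, 42.0, 46.2, 31.6 and 38.8 CPM in tau pre-IP and 44.3, 41.4 and 40.6 CPM in EYFP pre-IP. Maob (ENSMUSG00000040147.14, chrX:16709282-16817366, minus strand) had 48.0, 44.3, 57.3 and 34.5 CPM in the tau pull-downs, 54.5, 65.6 and 42.7 CPM in EYFP IP, 42.8, 46.8, 35.1 and 32.2 CPM in tau pre-IP and 44.4, 41.7 and 39.3 CPM in EYFP pre-IP. Maoa thus separated tau IP from EYFP IP, and Maob overlapped between all 4 groups. Maoa differed between fractions by 2.95 in tau animals (SE 0.49, edgeR adjusted p = 0.00616) and by 0.46 in EYFP animals (edgeR adjusted p = 0.0918), whereas Maob differed by 0.30 (edgeR adjusted p = 0.276) and 0.37 (edgeR adjusted p = 0.228).

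Compared within each animal, the log2 ratio of IP to pre-IP was larger for Maoa than for Maob by 3.47 in B, 2.72 in C, 2.33 in L, 0.85 in M and 0.52 in K, and by -0.01 in H and -0.21 in I. The mean difference was 1.38 ± 1.45 (SD, n = 7), positive in 5 of 7 animals, and a two-sided exact sign-flip permutation test gave p = 0.0625, where the smallest p possible with 7 animals is 0.0156. The 4 tau animals all had a positive difference, and the EYFP animals were on both sides of 0.

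Ranked within each animal by IP over pre-IP, Dbh came first in 5 animals and Slc6a2 in the other 2, and Maob came last in 4, Cyb561 in 2 and Slc18a2 in 1. Dbh ratios on the log2 scale were 7.13 in B, 6.84 in C, 5.79 in L and 3.05 in M, and 1.65, 1.75 and 1.02 in H, I and K. For Slc6a2 they were 7.14, 6.14, 5.45 and 2.64, and 2.00, 1.68 and 0.96. Animal M had the lowest ratio of the tau animals for 8 of the 9 genes, and its Ddc ratio of 0.48 lay below the 0.53 of EYFP animal H. For Th the ratios were 4.24, 3.43, 3.21 and 1.76 in tau animals and 1.09, 0.79 and 0.63 in EYFP animals, with no overlap.

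**Figure D2:**
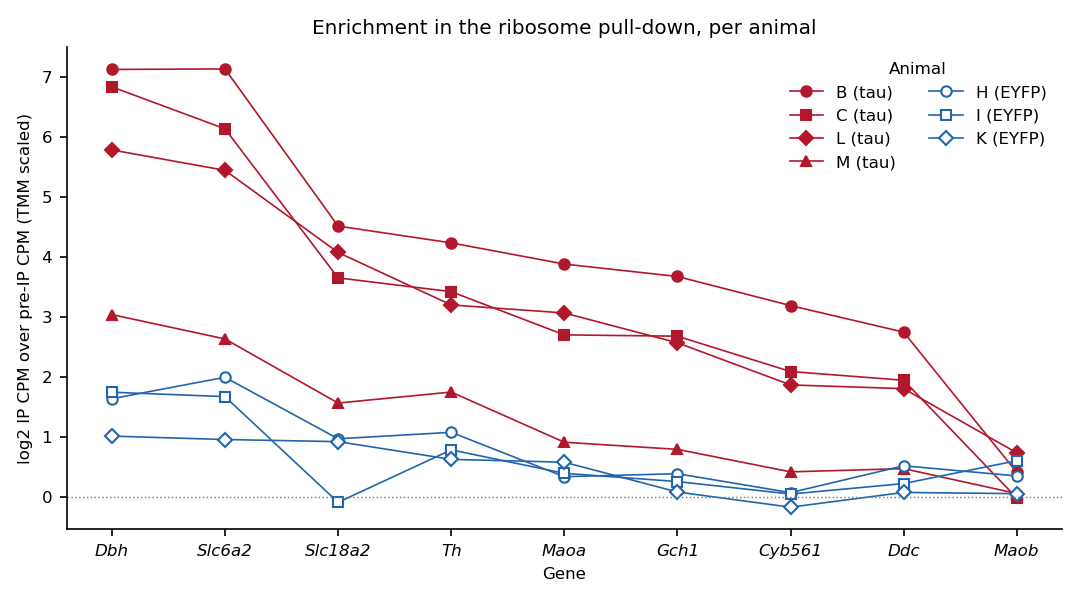
Log2 ratio of IP to pre-IP CPM (TMM scaled, prior count 2) of each gene, with 1 line per animal, red for tau and blue for EYFP, and genes ordered by the tau mean. Dbh and Slc6a2 stand highest in every animal, the tau line of animal M runs nearest to the EYFP lines, and at Maob all lines lie between -0.01 and 0.74.

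Tau IP was compared directly with EYFP IP, the contrast that the design text names. Here and in the interaction below, an effect of tau and a difference in pull-down efficiency between the groups cannot be told apart. No gene of 19472 passed (0% called with edgeR's quasi-likelihood test, 2336 genes at an unadjusted p under 0.05), and 0 of the 9 members did. The means of Dbh were 758.1 ± 486 CPM (SD, n = 4) in tau IP and 40.6 ± 13.9 CPM (SD, n = 3) in EYFP IP, a ratio of 18.7, and Slc6a2 had a ratio of 13.7. For the other members with separate groups the ratio of means ran from 3.02 for Ddc to 6.43 for Th. In 8 of 9 members every tau IP library exceeded every EYFP IP library, a pattern found in 6.36% of all tested genes (15.6% did not overlap in either direction). Log2 fold changes were 4.36 for Dbh (SE 0.72), 3.91 for Slc6a2 (SE 0.74), 2.83 for Th (SE 0.57), 2.81 for Slc18a2 (SE 0.45), 2.57 for Gch1 (SE 0.52), 2.45 for Maoa (SE 0.55), 2.12 for Cyb561 (SE 0.46) and 1.73 for Ddc (SE 0.39), and the adjusted p of all 8 was 0.318 by edgeR. Maob was at -0.12 (SE 0.21, edgeR adjusted p = 0.842). All 8 non-Maob members had an unadjusted p under 0.05.

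The missing calls appeared in 3 of the 11 alternatives run: another test, no filter on low counts, and animal M left out. DESeq2's Wald test called 347 genes, 8 of them members, edgeR without a filter on low counts called 113 genes including 8 members, and edgeR without animal M called 0.67% of genes, again including 8 members. With DESeq2 size factors in edgeR, or with library-number range as a covariate, 0 members were called. The same held without any 1 of animals B, C, H, I, K or L. Over the 11 alternatives run, the adjusted p of Dbh ranged from 1.51e-05 to 0.636. The median log2 fold change over the 9 members was 2.57 and over all tested genes -0.0773.

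The same contrast in the homogenate gave small values. In tau pre-IP against EYFP pre-IP, 0 of 9 were called (0% of 19197 genes, 545 at an unadjusted p under 0.05, none of them members), and the tau and EYFP libraries overlapped for all 9 (3.12% of tested genes did not overlap and 1.33% were higher in every tau library). Fold changes on the log2 scale ran from -0.50 for Slc6a2 (SE 0.38) to 0.17 for Th, each with an edgeR adjusted p of 1. DESeq2 called 0 members as well. In bulk samples fewer cells of a type and less RNA per cell cannot be told apart.

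**Figure D3:**
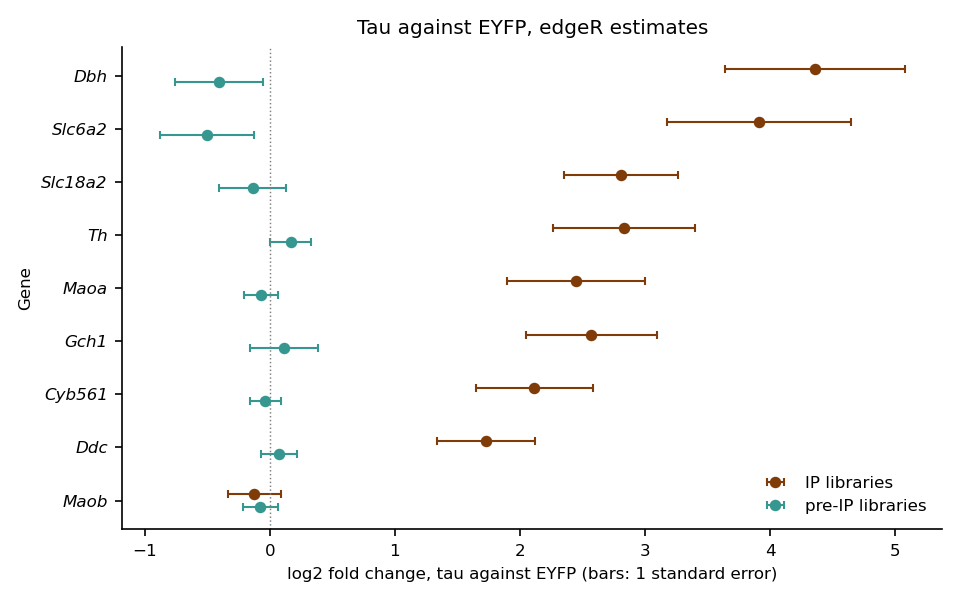
edgeR log2 fold change of tau against EYFP for each gene in the IP libraries (brown) and in the pre-IP libraries (teal), with bars of 1 standard error. The IP estimates lie between 1.73 and 4.36 for 8 genes and at -0.12 for Maob, and the pre-IP estimates between -0.50 and 0.17.

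Whether IP over pre-IP differed between treatments was tested by the interaction of treatment and fraction over all 14 libraries. Again 0 of 20495 genes passed (0%, 1223 genes at an unadjusted p under 0.05, of which 8 were members). The interaction was 4.78 for Dbh (SE 0.83, edgeR adjusted p = 0.166), 4.43 for Slc6a2 (SE 0.87, edgeR adjusted p = 0.23), 2.95 for Slc18a2 (SE 0.57, edgeR adjusted p = 0.23) and 2.68 for Th (SE 0.61, edgeR adjusted p = 0.312). Values of 2.53 for Maoa, 2.47 for Gch1, 2.16 for Cyb561 and 1.67 for Ddc followed, with adjusted p from 0.336 to 0.505, and Maob had -0.04 (edgeR adjusted p = 0.989). DESeq2 called 6 of the members among 67 genes in all, edgeR without the low-count filter 8 among 67, and edgeR without animal M 8 among 56. With the animal as a block 0 members were called (lowest edgeR adjusted p = 0.381). Library-number range as a covariate also gave 0 (lowest edgeR adjusted p = 0.182). So did DESeq2 size factors in edgeR and leaving out B, C, H, I, K or L. The comparisons in tau animals, in EYFP animals and in IP share libraries with the interaction test.

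Libraries carry numbers up to 11 (animals B, C, H and I) or from 17 (K, L and M), and what the numbers stand for is not given. Within the lower range the mean IP over pre-IP ratio of Dbh was 5.29 larger in tau than in EYFP animals on the log2 scale, and within the upper range, with a single EYFP animal, it was 3.40 larger. The same pair of values was 4.80 and 3.08 for Slc6a2, 2.90 and 1.85 for Th and 2.93 and 1.41 for Maoa. Maob changed sign between the ranges, at -0.28 and 0.34.

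Per kilobase of exon, the order of the genes shifted with the pull-down. In tau pre-IP Cyb561 led at 48.8 CPM per kb, above Th at 28.7, Maob at 14.1, Ddc at 11.5 and Maoa at 9.51, and Slc6a2 was last at 1.02 CPM per kb. EYFP IP kept Cyb561 (50.7 CPM per kb) above Th (46.1), followed by Maob at 19.5 and Dbh at 15.1. In tau IP Th led at 296 ± 194 CPM per kb and Dbh followed at 282 ± 181 (SD, n = 4 each), Th above Dbh in 2 of 4 libraries, so that their order was not resolved. Next came Cyb561 at 199, then Maoa at 68.7, Slc18a2 at 53.1 and Slc6a2 at 52.3, the latter pair also ordered in only 2 of 4 libraries. Summed over the 9 genes, CPM was 5947, 3586, 3079 and 958 in tau IP and 580.0, 568.7 and 622.6 in EYFP IP.

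The other genes of catecholamine metabolism were described from a list of 32 that covers the cofactor, copper and ascorbate, vesicles, other uptake, further breakdown and amino acid supply. Across all libraries 9 were higher in IP and 4 lower, where 16.3% and 14.7% of all genes tested were called, with a median log2 fold change of 0.10. The largest of the 9 were Pnmt (2.49, edgeR adjusted p = 0.0341), which methylates noradrenaline to adrenaline, and Pcbd1 (1.44, edgeR adjusted p = 0.0158), which helps to recycle tetrahydrobiopterin. Pnmt was sparse, with 644, 92, 64 and 62 counts in tau IP and 30, 0 and 64 in EYFP IP, against 27, 2, 28 and 30 in tau pre-IP and 12, 16 and 12 in EYFP pre-IP. Pcbd1 had 621.5, 346.0, 338.4 and 122.6 CPM in the tau IP of B, C, L and M and 71.6, 72.5 and 72.3 CPM in EYFP IP, with no overlap, and 57.6 to 80.7 CPM in pre-IP. Akr1b3 (1.07, edgeR adjusted p = 0.00187), an aldose reductase listed in the files as Akr1b1, had 252.4, 186.3, 162.3 and 103.9 CPM in the tau pull-downs and 92.8, 82.5 and 89.1 CPM in EYFP IP, and 51.5 to 76.3 CPM in pre-IP.

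The smaller rises were those of the cofactor enzymes Pts (0.55), Pcbd2 (0.47), Spr (0.44) and Qdpr (0.37), the copper chaperone Atox1 (0.63) and the granule protein Chgb (0.59). Those that fell in IP were the pyridoxal kinase Pdxk (-0.97, edgeR adjusted p = 3.73e-05), the dopamine transporter Slc6a3 (-0.81), the amino acid transporter Slc7a5 (-0.73) and the ascorbate transporter Slc23a2 (-0.38). In tau animals alone 9 were higher and 3 lower (20.7% of all genes called), with Dnajc12 in place of Qdpr. In EYFP animals alone 0 were higher and 2, Pdxk and Slc7a5, lower (6.38% of all genes called, 2.41% as lower). Between treatments 0 of 32 were called in IP, in pre-IP or in the interaction. At an unadjusted edgeR p under 0.05 there were 12, 0 and 6, where 12%, 2.84% and 5.97% of all genes tested were. In IP 9 of the 12 were higher and 3 lower, and in the interaction 5 of the 6 were higher and 1 lower.

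**Figure D4:**
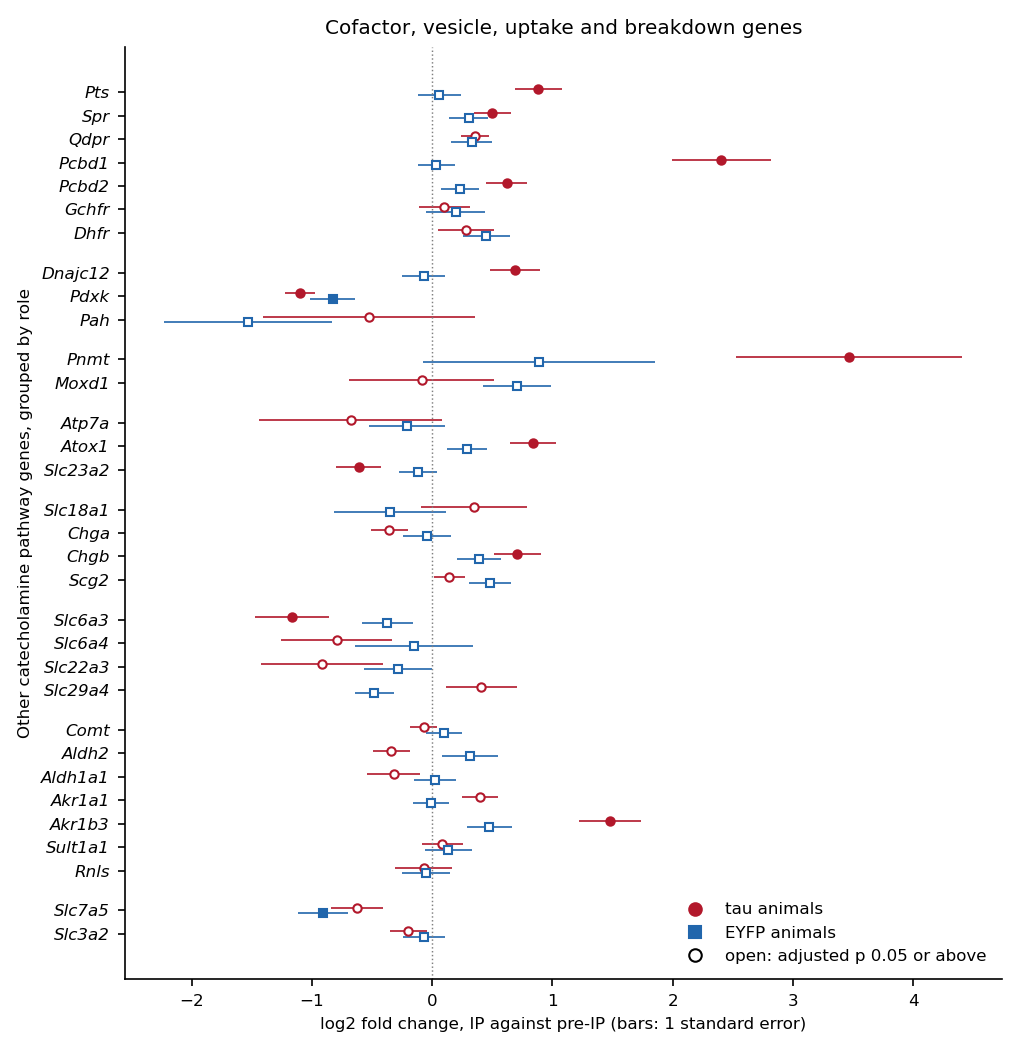
edgeR log2 fold change of IP against pre-IP for the 32 other catecholamine pathway genes, grouped by role, in tau animals (red circles) and EYFP animals (blue squares), with bars of 1 standard error and open symbols where the adjusted p was 0.05 or above. Pnmt and Pcbd1 lie farthest to the right in tau animals, and Pdxk lies to the left in both treatments.

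Over the 14 libraries the log2 CPM of the members other than Maob followed that of Dbh. Slc6a2 had the highest correlation with it (Pearson r = 0.997, rank 2 among 20495 genes with Dbh itself first), then Slc18a2 (rank 8), Th (rank 10), Ddc (rank 20), Maoa (rank 22), Gch1 (rank 28) and Cyb561 (rank 50). Maob had r = 0.449 with Dbh and rank 4918. The 5 other genes most like Dbh were Gm32358 (r = 0.975), the neuropeptide gene Gal (r = 0.975), Chodl (r = 0.973), 2310033P09Rik (r = 0.972) and Calca (r = 0.972), which encodes calcitonin and its related peptide. Those most like Maob were Fem1b (r = 0.952), Jrkl (r = 0.910), A830082N09Rik (r = 0.904), Ice2 (r = 0.901) and the exoribonuclease gene Xrn2 (r = 0.895). The 14 points fall into the same 4 groups and share animals and library preparation, so these correlations are a description.

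Marker lists of other cell types were read beside the members. Noradrenergic markers that are not members (3 genes: Phox2a, Gal and Tfap2b) summed to 136 to 1238 CPM in tau IP, 46.4 to 56.8 CPM in EYFP IP and 23.5 to 35.4 CPM in pre-IP. All 3 were above the floor in every library, and all 3 were called higher in IP. Most of the sum was Gal, with a tau IP mean of 572.7 CPM against 19.05 for Tfap2b and 15.6 for Phox2a. Mean log2 ratios of IP to pre-IP in tau animals were 4.23 for Gal, 5.21 for Phox2a and 1.67 for Tfap2b. Oligodendrocyte markers (6 genes) summed to 3634 to 10300 CPM in the tau pull-downs and 8822 to 13120 CPM in EYFP IP, astrocyte markers (6 genes) to 408 to 895 and 843 to 1111 CPM, and serotonergic markers (5 genes) to 22.5 to 81.2 and 58.6 to 144 CPM. In tau IP against EYFP IP all 6 astrocyte, all 6 oligodendrocyte and all 5 serotonergic genes had a negative log2 fold change, with list medians of -0.51, -0.49 and -0.53, and none was called. Dopaminergic markers (4 genes, among them the dopamine transporter Slc6a3) summed to 147 to 344 CPM in the tau pull-downs and 308 to 413 CPM in EYFP IP. Every gene of the lists other than the noradrenergic and adrenergic ones had a negative estimate in this contrast. Their part in the members' differences, including that of Maob, was not tested.

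**Figure D5:**
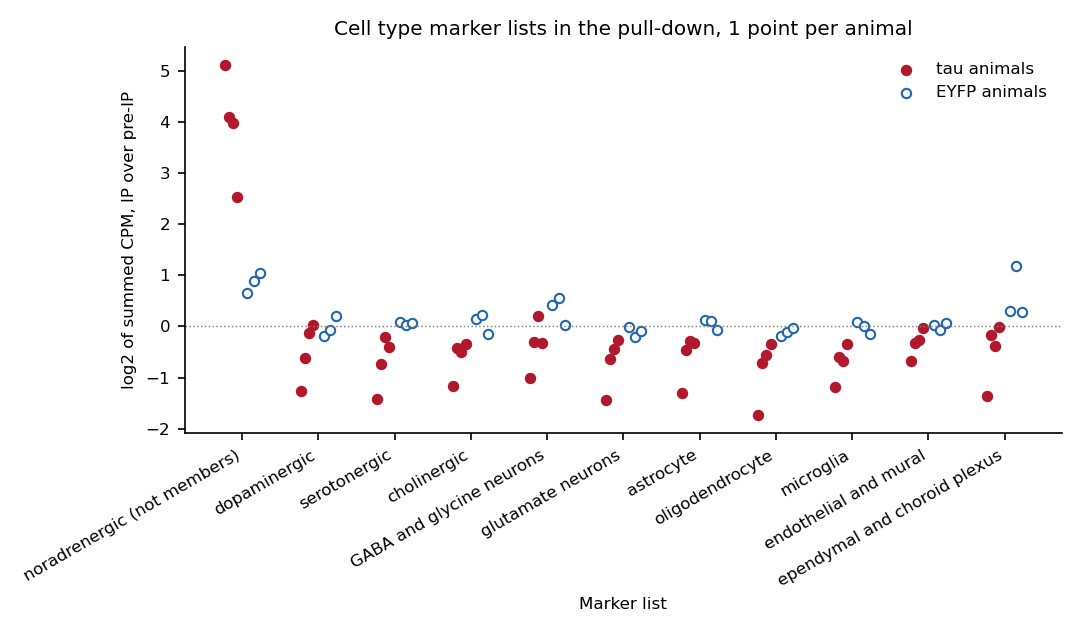
Log2 ratio of IP to pre-IP of the summed CPM of each marker list except the adrenergic one (Pnmt alone). There is 1 point per animal, red for tau and open blue for EYFP. The adrenergic ratio, not drawn, was 1.295 to 5.676 in tau animals. It was 0.67 and 2.27 in EYFP animals H and K, and the IP of I had 0 CPM. The noradrenergic list, whose sum is mostly Gal, lies between 2.54 and 5.13 in tau animals and between 0.66 and 1.04 in EYFP animals. The oligodendrocyte list lies below 0 in all 7 animals.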

How the data were processed

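RNA was measured in 14 libraries, IP and pre-IP of 7 mice. Per the labels' protocols, polyadenylated RNA was extracted on columns and libraries were made with SMART-Seq and Nextera XT kits. Per the submitters' processing notes, FastQC, Trim Galore, STAR and featureCounts were used with GRCm38 (mm10); versions, annotation, strand setting and treatment of multiply mapped reads are not given in the sources used here. The authors deposited whole-number read counts per gene, not normalized. The RNA integrity score, RNA concentration and raw reads are those of the deposited sample sheet, per the file headers. Total counts were 76.4 to 85.3 percent of raw reads, and floors cover counting error only.

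CPM is counts over the library total. Tests used edgeR 4.0.16 in R 4.3.3 (filterByExpr, TMM, quasi-likelihood F test, Benjamini-Hochberg over all genes tested, threshold 0.05), with DESeq2 1.42.0 as an alternative; the standard error is the log2 fold change over the square root of F. Ratios per animal used TMM-scaled CPM with a prior count of 2. Within-animal pairing comes from the animal letter in the titles: deviations of an animal's 2 libraries from their group means correlated at 0.224 on average (0.147 to 0.359 over 7 animals), and the block was an alternative fit. The labels do not describe culture or litter. The sign-flip test and the fits within IP or within pre-IP hold a single value per animal, so their p-values measure the spread between these animals. Fits over both fractions without the block treat an animal's 2 libraries as independent, so their p-values measure the spread between libraries. The alternatives were other normalization, no low-count filter, leaving out each animal, library-number range as a covariate and the model without treatment.

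All members were named in every comparison; other pathway genes were named where they passed in IP against pre-IP, and the 5 genes most correlated with Dbh and with Maob were named. Dnajc12, which passed in tau animals, and Pnmt counts were added after values were seen. One marker gene is not reported here. Members and lists were chosen with earlier results of these data known. The testing scripts were tested on simulated data. Gene positions equal those of GENCODE M21.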

Additional observations from a re-analysis of the deposited data

How the results depend on the processing

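Over all libraries, the counts of calls in IP against pre-IP kept within 1.5 times under each setting run (22.8% to 31.4% of genes with 1 animal left out). In EYFP animals 6.38% of genes tested were called, and this became 15.1% with DESeq2, 6.81% (2164 against 1218 genes) without the filter on low counts and 16.9% with the animal letter as replicate block; members called became 4 without the filter and 5 under the replicate block, with 5 other pathway genes under the block. Leaving out 1 animal gave 0% to 2% of genes, 0 to 3 members and 0 other pathway genes there, and 0% to 20.2%, 0 to 8 and 0 to 8 in tau animals, where animals C and L each brought all 3 to 0. For tau IP against EYFP IP, DESeq2 called 1.69% of genes, 8 members and 3 other pathway genes, no filter gave 0.355%, 8 and 1, and leaving out 1 animal gave 0% to 0.67%, 0 to 8 and 0 to 2, all calls arising without animal M. In pre-IP the share was 0.136% with no filter and 0% to 0.00524% with 1 animal left out. For the interaction DESeq2 called 0.3% of genes, 6 members and 1 other pathway gene, no filter gave 0.192%, 8 and 1, and leaving out 1 animal gave 0% to 0.277%, 0 to 8 and 0 to 1, again without M. The cause was not tested. The replicate block changed the calls of Cyb561 over all libraries and of Dbh, Slc6a2, Slc18a2 and Maoa in EYFP animals, and no other member call. Direction turned only for estimates that were not called. Cyb561 in EYFP animals was 0.00408 with no filter and -0.0473 to 0.0804 with 1 animal left out. Maob ran from -0.278 to 0.0188 in tau IP against EYFP IP and from -0.206 to 0.0667 in the interaction. In pre-IP the ranges were -0.0937 to 0.0574 for Cyb561, -0.0578 to 0.219 for Ddc, -0.104 to 0.595 for Gch1, -0.433 to 0.032 for Slc18a2, -0.711 to 0.278 for Dbh, -0.81 to 0.30 for Slc6a2 and -0.137 to 0.0219 for Maoa. The mean difference between Maoa and Maob ran from 1.03 to 1.65. Each member had at least 241 counts in every library.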
